A study of Mus musculus with 12 samples.

Results

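Twist1, Twist2, Prrx1, Prrx2, Snai2, Zeb1, Zeb2 and Vim are 8 mouse genes that mark or drive the mesenchymal state of cells. They were read by every probe set that the platform annotation assigns to one of these symbols, which gave 14 of the 22690 probe sets on the array. Prrx1 had 4 probe sets, Vim 3, Zeb1 2 and each of the other genes 1. Expression had been measured on 12 Affymetrix arrays, 1 per RNA sample, in a study of cultured keratinocytes against skin and of newborn against older skin. Of the cultures, 2 came from newborn mice labelled as a mix of C57, DBA and FVB, and 3 from newborn FVB mice. Each culture held keratinocytes pooled from 5 newborns of the same genotype, grown without passage in low-calcium medium for no longer than 3 days. Skin was taken at 30 days from mice of the mixed background (5 arrays) and from newborn FVB mice (2 arrays). Strain and age therefore change together within skin. Whether the skin samples are of different animals is not in the labels, so that p-values reflect sample-to-sample spread that could be technical.

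Twist1 and Twist2 are basic helix-loop-helix factors that bind E-box DNA together with E proteins, and Twist2 is also known as Dermo1 for its expression in dermis. Prrx1 and Prrx2 are paired-related homeodomain factors of limb, craniofacial and dermal mesenchyme. Snai2 (Slug), Zeb1 and Zeb2 are zinc finger repressors of E-cadherin and other epithelial genes, and Snai2 is also made by basal keratinocytes of the epidermis. Vim encodes vimentin, the intermediate filament protein of fibroblasts, endothelial cells and leukocytes. In epithelial cells that turn mesenchymal, the process called the epithelial-mesenchymal transition (EMT), these genes are known to be switched on.

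RefSeq promoter sequences (build GRCm38.p6) were found for 6 of the 8 genes. The 250 bases before the transcription start are printed for 4 of them, because Prrx1 with Vim and Twist1 with Twist2 were the pairs whose values ran most alike over the 12 arrays, as described further on. Each is written 5′ to 3′ on the gene's own strand, and capitals mark the letters TATAAA.
Twist1, chr12:33957421-33957670, plus strand: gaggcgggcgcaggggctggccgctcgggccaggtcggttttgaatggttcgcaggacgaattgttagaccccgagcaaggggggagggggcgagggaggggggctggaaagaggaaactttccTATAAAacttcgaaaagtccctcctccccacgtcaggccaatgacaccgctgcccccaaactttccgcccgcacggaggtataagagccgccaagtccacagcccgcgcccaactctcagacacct
Twist2, chr1:91801211-91801460, plus strand: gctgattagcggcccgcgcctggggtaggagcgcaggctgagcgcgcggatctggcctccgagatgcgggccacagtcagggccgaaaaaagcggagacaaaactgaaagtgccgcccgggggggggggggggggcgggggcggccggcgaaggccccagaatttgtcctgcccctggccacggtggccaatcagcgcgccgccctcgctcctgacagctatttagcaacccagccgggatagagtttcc
Prrx1, chr1:163313651-163313900, minus strand: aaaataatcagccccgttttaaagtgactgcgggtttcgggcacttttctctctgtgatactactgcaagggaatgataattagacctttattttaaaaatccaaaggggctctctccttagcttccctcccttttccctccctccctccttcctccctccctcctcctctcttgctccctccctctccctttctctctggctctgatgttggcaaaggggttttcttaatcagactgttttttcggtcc
Vim, chr2:13574061-13574310, plus strand: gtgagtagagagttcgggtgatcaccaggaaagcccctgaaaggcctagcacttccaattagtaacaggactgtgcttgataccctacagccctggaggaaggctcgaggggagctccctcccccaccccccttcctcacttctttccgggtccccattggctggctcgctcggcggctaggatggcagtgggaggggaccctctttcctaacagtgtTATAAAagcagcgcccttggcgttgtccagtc
Searched on both strands, TATAAA occurred once in the Twist1 window, starting 126 bases before the start site, and once in the Vim window, starting 32 bases before it. It occurred in 12.4% of the 32851 promoters of the table. The E-box CANNTG occurred in none of the 9 promoter entries of the 6 genes, against 66.2% of all promoters, and CACCTG, the E-box form bound by Snail and Zeb proteins and a subset of CANNTG, also in none, against 17.2%. These counts say only which letters stand in these windows.

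The deposited values are RMA values on a log2 scale, so a difference of 1 is a doubling, and they carry no detection call. Array medians lay between 5.86 and 6.01. Basal keratinocyte markers, such as Krt5 and Krt14, were above the array median on every array for all 10 measured genes, and averaged 9.95 to 10.04 in the mixed-strain cultures, 10.39 to 10.46 in the FVB cultures, 8.66 to 8.89 in 30-day skin and 8.80 to 8.95 in newborn skin. One array, replicate 1 of 30-day skin, had unusual control values. The gap from its 5′ to its 3′ actin probe set was 1.74, compared with 0.67 to 0.82 on the remaining 4 arrays of 30-day skin, and 18S rRNA read 8.14, compared with 5.97 to 6.51. Of the 14 probe sets, that array lay above the remaining 4 in 7, below them in 1 and among them in 6. Between skin ages Zeb1 at 1418926_at and Zeb2 passed without it but not with it, and they and Twist1 are given both ways. The other calls of the 14 did not change. In replicate 5 of the FVB cultures 18S rRNA read 7.16, compared with 6.28 and 6.35 in the others. By group, the actin gap was 0.21 to 0.35 in mixed-strain cultures, 0.56 to 0.74 in FVB cultures and 0.99 to 1.14 in newborn skin. The actin gap thus differed between groups compared below, and its part in their differences was not tested.

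Relative to newborn skin, FVB cultures had less signal for 7 of the 8 genes and more for Snai2. This comparison keeps strain label and age the same on both sides. At probe-set level 12 of 14 were lower, 1 was higher and 1 did not pass the test (limma, Benjamini-Hochberg adjusted p under 0.05 over 22626 probe sets, as for every call that follows). Over all probe sets 34.4% passed, with 14.8% lower and 19.6% higher. The median log2 difference of the 14 probe sets was -2.27, against 0.05 over all. Relative to 30-day skin, mixed-strain cultures had 8 of 14 probe sets lower and 1 higher, against 16.2% and 21.4% of all (37.5% in either direction), with medians of -0.89 and 0.03. In that second comparison age differs as well, since the cultures came from newborns. In 30-day against newborn skin 8 of 14 were lower and 0 higher, against 10.3% and 6.9% of all (17.2% in either direction), and the medians were -0.82 and 0.00. At an unadjusted p of 0.05 the limma fit had 9 lower and still 0 higher. The 8 included all 3 probe sets of Vim, 2 of the 4 of Prrx1 and the probe set of each of Twist1, Twist2 and Prrx2, and without replicate 1 of 30-day skin the count was 10. When arrays of 1 group that correlated above 0.99 were averaged and counted once, which leaves 1 sample each for mixed-strain culture and newborn skin and assumes that these vary like the others, 5 were lower in mixed-strain culture than in 30-day skin and 4 in 30-day than in newborn skin.

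**Figure D1:**
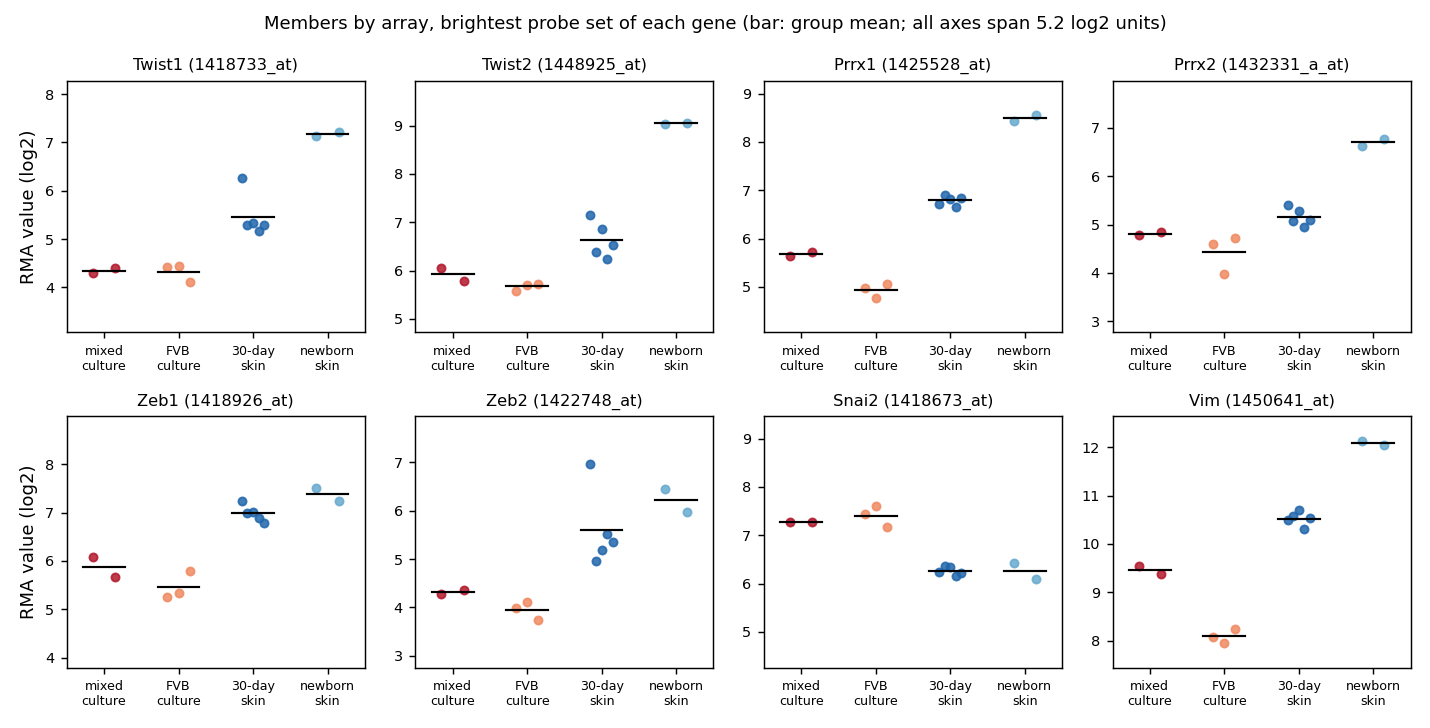
RMA values (log2) of each gene's probe set with the highest mean, 1 point per array, with a bar at the group mean. Each vertical axis spans the same number of log2 units. In all panels but that of Snai2 both newborn skin arrays lie above all 5 cultures, and in that of Snai2 every culture lies above every skin array. The share of all probe sets that separate groups in these ways was not counted.

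**Figure D2:**
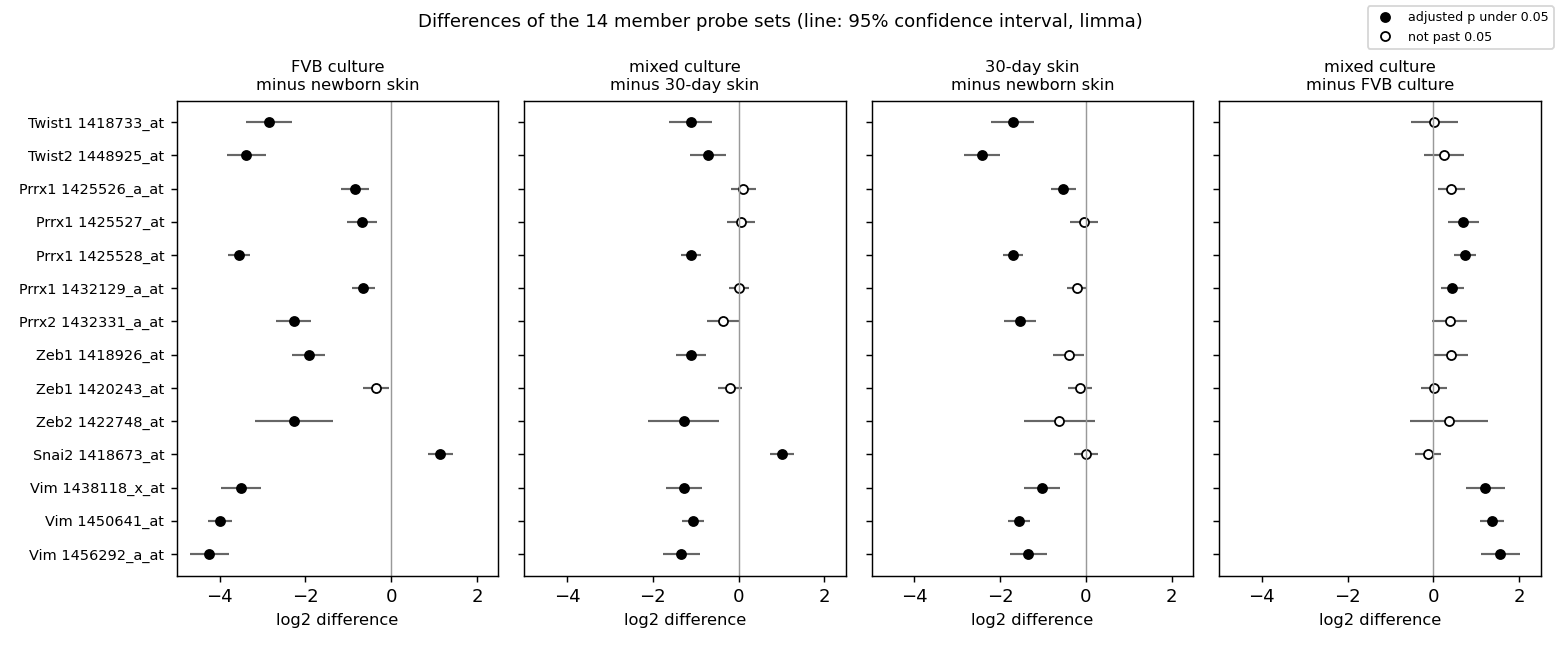
Log2 differences of the 14 probe sets in the 4 comparisons, with 95% confidence intervals from limma; filled points passed the adjusted p of 0.05. Snai2 is the gene that lies right of zero in both comparisons of culture with skin.

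Fibroblast markers moved with the genes in the comparisons of culture with skin. All 9 measured ones, among them Col1a1, Col1a2, Dcn and Pdgfra, were lower in FVB culture than in newborn skin, and all 9 in mixed-strain culture than in 30-day skin. Their mean level was 5.95 to 5.98 in the mixed-strain cultures, 5.46 to 5.56 in the FVB cultures, 10.19 to 10.49 in 30-day skin and 10.74 to 10.78 in newborn skin. Below the array median were 4 to 5 of the 9 in mixed-strain cultures, 6 in FVB cultures and 0 in skin. Endothelial markers were lower for 9 of 10 and macrophage markers for 9 of 10 in both comparisons. Basal keratinocyte markers were higher for 8 of 10 in FVB culture, and for 7 with 1 lower in mixed-strain culture. In the same order, suprabasal keratinocyte markers were lower for 6 and 8 of 8 and skeletal muscle markers for 8 and 10 of 10. Adipocyte markers were lower for 8 of 8 in both. Melanocyte markers were lower for 8 of 9 in FVB culture, and for 4 with 2 higher in mixed-strain culture. Dermal papilla markers were lower for 7 and 6 of 9, with 1 higher in each. Smooth muscle and pericyte markers were lower for 7 of 10 in both, with 2 higher in mixed-strain culture. Langerhans and T cell markers were lower for 3 of 9 with 1 higher in FVB culture, and for 6 in mixed-strain culture. Schwann cell markers went otherwise, with 2 of 6 higher and 2 lower in FVB culture. In mixed-strain culture 3 were higher and 0 lower, as at an unadjusted p of 0.05 (limma). In such bulk samples fewer cells of a type and less RNA per cell cannot be told apart, and the part of these cell types in the differences of the 8 genes was not tested.

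Markers of other cell types also differed between the skin ages. Endothelial markers were lower in 30-day than in newborn skin for 6 of 10 and higher for 0 (limma; 6 and 0 at an unadjusted p of 0.05), with a mean level of 5.95 to 6.02 at 30 days and 6.47 to 6.51 in newborns. Fibroblast markers were lower for 3 of 9 and higher for 1, as were dermal papilla markers, whose mean level was 5.42 to 5.59 at 30 days and 5.81 to 5.87 in newborns. Langerhans and T cell markers were higher at 30 days for 7 of 9 and lower for 0 (limma; 7 and 0 at an unadjusted p of 0.05), at 7.25 to 7.47 against 5.93 to 5.96 in newborns. Macrophage markers were higher for 4 of 10 and lower for 0 (5 and 1 unadjusted), at 7.57 to 7.87 against 7.13 to 7.17 in newborns. Melanocyte markers were higher for 5 of 9 and lower for 0 (6 and 0 unadjusted), skeletal muscle markers higher for 4 of 10 and lower for 1, smooth muscle and pericyte markers lower for 3 of 10 and higher for 1, and adipocyte markers lower for 3 of 8 and higher for 0 (4 and 0 unadjusted). Suprabasal keratinocyte markers were lower for 4 of 8 and higher for 2. The part of these cells in the age differences of the 8 genes was not tested.

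Twist1 and Twist2 were highest in newborn skin, lower in 30-day skin and lowest in culture, where the strains did not differ detectably. Twist1 read 4.29 and 4.40 in the mixed-strain cultures and 4.41, 4.45 and 4.11 in the FVB cultures. It read 6.26, 5.28, 5.33, 5.16 and 5.29 in 30-day skin and 7.13 and 7.22 in newborn skin. No culture reached the lowest skin array, and the 2 skin ages did not overlap, with replicate 1 of 30-day skin nearest to newborn skin. Twist1 was 7.22-fold lower in FVB culture than in newborn skin (log2 difference -2.85 ± 0.25, SE, adjusted p = 1.03e-06, limma) and 2.17-fold lower in mixed-strain culture than in 30-day skin (-1.12 ± 0.23, adjusted p = 0.00154). Between skin ages, 30-day minus newborn, it differed by -1.71 ± 0.23 (adjusted p = 2.09e-04). Without replicate 1 of 30-day skin the last 2 differences were -0.92 and -1.91. The mixed-strain cultures differed from the FVB cultures by 0.02, with a 95% interval from -0.52 to 0.56. In mean signal the Twist1 probe set stood at percentile 31.3 of all probe sets, and every culture read it below the array medians. Such dim values cannot decide how far Twist1 fell in culture or whether the strains differ.

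Twist2 read 6.06 and 5.79 in the mixed-strain cultures and 5.58, 5.71 and 5.73 in the FVB cultures. Skin gave 7.15, 6.38, 6.86, 6.24 and 6.53 at 30 days and 9.04 and 9.06 in newborns. Newborn skin thus stood well above all other arrays, and the lowest 30-day array, at 6.24, lay close to the highest culture, at 6.06. The gene was 10.4-fold lower in FVB culture than in newborn skin (-3.38 ± 0.21, SE, adjusted p = 3.7e-08) and 5.35-fold lower in 30-day than in newborn skin (-2.42 ± 0.19, adjusted p = 2.45e-06). Mixed-strain culture differed from 30-day skin by -0.71 ± 0.19 (adjusted p = 0.0104), and without replicate 2 of the mixed-strain cultures that difference was -0.57 and no longer passed (adjusted p = 0.137). Averaging of the arrays most alike ended the calls of both Twist genes in mixed-strain culture against 30-day skin and that of Twist1 in 30-day against newborn skin, with adjusted p = 0.0725, 0.103 and 0.124.

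The E proteins that pair with Twist factors and the Id proteins that sequester E proteins formed a list of 11 genes with their relatives. In FVB culture against newborn skin limma called 5 of the 11 lower and 0 higher, and the counts at an unadjusted p of 0.05 were the same. Id4, an Id inhibitor, averaged 5.34 ± 0.06 in FVB culture and 8.61 ± 0.04 in newborn skin (SD, n = 3 and 2), and differed by -3.27 ± 0.15 (SE, adjusted p = 1.28e-09). Tcf4, an E protein, differed by -2.25, Id2 by -1.20 and Id1 by -0.99. Hand2, another basic helix-loop-helix factor, did not pass (0.23, adjusted p = 0.222). Mixed-strain culture against 30-day skin gave 5 lower and 1 higher, with Id4 at -3.51, Id1 at -1.71, Tcf4 at -1.60 and Id2 at -1.29. Relative to newborn skin, 30-day skin had Id4 higher by 0.57, whereas Tcf4 differed by -0.99 and the E protein gene Tcf3 by -0.60. The list's median difference in these 3 comparisons was -0.01, -0.17 and -0.07. After centring on epithelial genes 10, 7 and 4 were lower in them.

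Prrx1 was lower in culture than in skin at the probe set with its highest mean, 1425528_at, and this probe set separated all 4 groups. It read 5.63 and 5.72 in the mixed-strain cultures and 4.97, 4.77 and 5.06 in the FVB cultures. Skin gave 6.72, 6.90, 6.82, 6.66 and 6.85 at 30 days and 8.42 and 8.55 in newborns. No 2 groups overlapped, in the order newborn skin, 30-day skin, mixed-strain culture and FVB culture. The share of all probe sets with groups as separate was not counted. FVB culture was 11.7-fold below newborn skin (-3.55 ± 0.12, SE, adjusted p = 6.22e-11), mixed-strain culture 2.16-fold below 30-day skin (-1.11 ± 0.11, adjusted p = 2.19e-06) and 30-day skin 3.24-fold below newborn skin (-1.70 ± 0.11, adjusted p = 2.41e-07).

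The other 3 probe sets of Prrx1 gave much smaller differences. The probe set 1425526_a_at read 5.30 and 5.32 in the mixed-strain cultures, 4.79 to 4.99 in the FVB cultures, 4.99 to 5.43 in 30-day skin and 5.57 and 5.90 in newborn skin. FVB culture differed from newborn skin by -0.84, -0.69 and -0.65 at 1425526_a_at, 1425527_at and 1432129_a_at, and all 3 passed. None of the 3 passed in mixed-strain culture against 30-day skin, where the differences were 0.11, 0.07 and 0.01. In 30-day against newborn skin 1425526_a_at passed (-0.53, adjusted p = 0.0165), but not without replicate 1 of newborn skin (-0.36, adjusted p = 0.238), which also ended the call of 1425527_at in FVB culture against newborn skin (-0.47, adjusted p = 0.104). The probe sets of Prrx1 thus disagree in size in each comparison with skin, and in whether they passed in both that involve 30-day skin. In mean signal the 3 stood at percentiles 29.9, 25.4 and 19.9 of all probe sets, and 1425528_at at 59.4. They are dim, so their small differences cannot decide how far Prrx1 changed. Averaging of the arrays most alike ended the calls of 1425527_at and 1432129_a_at in FVB culture (adjusted p = 0.0737 and 0.0893) and that of 1425526_a_at between ages (adjusted p = 0.250). With its probe sets averaged into 1 value, Prrx1 differed by -0.23 in mixed-strain culture against 30-day skin (adjusted p = 0.0502).

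**Figure D3:**
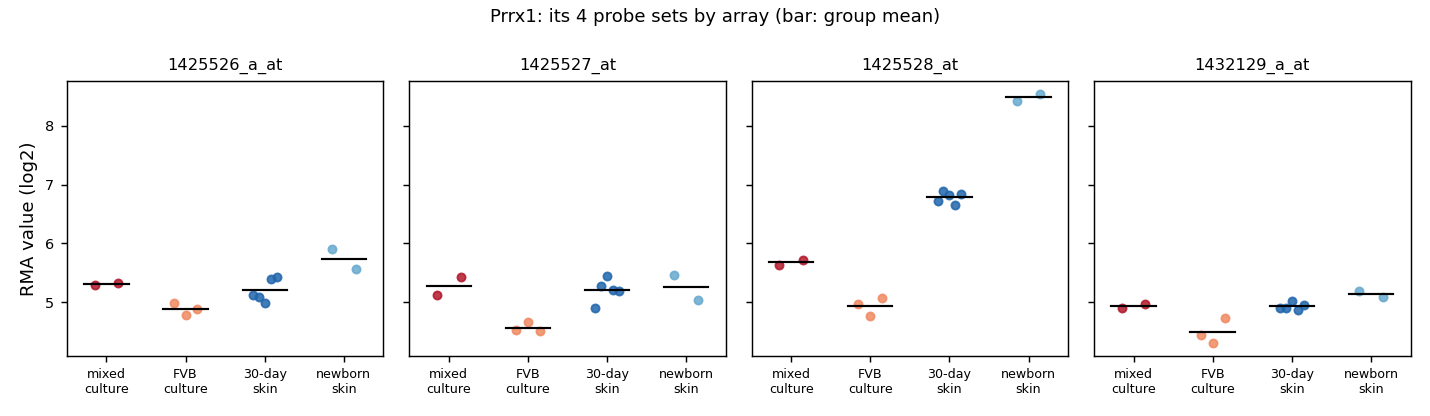
RMA values (log2) of the 4 Prrx1 probe sets, 1 point per array, with a bar at the group mean and a shared vertical axis. The probe set 1425528_at runs from 4.77 in an FVB culture to 8.55 in newborn skin, whereas the other 3 stay between 4.30 and 5.90.

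Prrx2 read 4.78 and 4.84 in the mixed-strain cultures and 4.60, 3.97 and 4.71 in the FVB cultures. In skin the values were 5.40, 5.08, 5.28, 4.95 and 5.10 at 30 days and 6.63 and 6.77 in newborns. Newborn skin stood apart, while 30-day skin began just above the cultures. In mean signal the Prrx2 probe set stood at percentile 28.3 of all probe sets, and every culture read it below the array medians. Such dim values cannot decide how far Prrx2 fell in culture. FVB culture was 4.83-fold below newborn skin (-2.27 ± 0.19, SE, adjusted p = 6.3e-07) and 30-day skin 2.9-fold below it (-1.54 ± 0.17, adjusted p = 5.08e-05). Mixed-strain culture differed from 30-day skin by -0.35, with a 95% interval from -0.73 to 0.02 (adjusted p = 0.139). That difference passed when replicate 4 of the FVB cultures, which enters it through the shared spread, was left out (adjusted p = 0.039).

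Among 24 other transcription factors of mesenchyme and dermis, 14 were lower in FVB culture than in newborn skin and 1 was higher, with a median difference of -0.44. Osr2, an odd-skipped zinc finger factor, averaged 4.41 ± 0.25 in FVB culture and 7.05 ± 0.05 in newborn skin (SD, n = 3 and 2) and differed by -2.64 ± 0.13 (SE, adjusted p = 3.25e-09). Ebf1, a helix-loop-helix factor, differed by -2.17, the T-box factor Tbx15 by -2.17 and the homeobox factor Msx2 by -1.56, whereas Tbx18 missed the threshold (-0.27, adjusted p = 0.0864). Mixed-strain culture against 30-day skin gave 8 lower and 1 higher, with a median of -0.17. They were led by Msx2 (-2.32), Prdm1 (-2.15) and Lef1 (-1.75), factors that hair follicles or sebaceous glands also express. Between ages 9 were lower in 30-day skin and 3 higher (median -0.12), with Osr2 at -2.08, Ebf1 at -1.41 and Tbx15 at -0.92, while Msx2 was higher by 1.04. When arrays were centred on epithelial genes, 21 were lower in FVB culture against newborn skin, 20 in mixed-strain culture against 30-day skin (median -0.49) and 12 in 30-day against newborn skin.

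Zeb1 and Zeb2 were lower in culture than in skin and did not pass between skin ages. The Zeb1 probe set 1418926_at read 6.08 and 5.66 in the mixed-strain cultures and 5.26, 5.33 and 5.78 in the FVB cultures. Skin gave 7.23, 6.99, 7.004, 6.89 and 6.79 at 30 days and 7.52 and 7.25 in newborns. Every skin array was above every culture, and the 2 skin ages nearly touched. FVB culture was 3.8-fold below newborn skin (-1.93 ± 0.18, SE, adjusted p = 1.94e-06) and mixed-strain culture 2.16-fold below 30-day skin (-1.11 ± 0.17, adjusted p = 1.20e-04). In 30-day against newborn skin the difference was -0.40 ± 0.17 (adjusted p = 0.124), and without replicate 1 of 30-day skin it was -0.46 and passed (adjusted p = 0.0476). The other Zeb1 probe set, 1420243_at, ran from 4.21 to 4.81 over all arrays and passed in none of the 4 comparisons. It passed in FVB culture against newborn skin without replicate 5 of the FVB cultures (-0.46, adjusted p = 0.0197).

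Zeb2 read 4.27 and 4.36 in the mixed-strain cultures and 3.98, 4.10 and 3.74 in the FVB cultures. Skin gave 6.96, 4.96, 5.19, 5.51 and 5.35 at 30 days and 6.46 and 5.98 in newborns. All skin arrays were above all cultures, and replicate 1 of 30-day skin exceeded even newborn skin. In mean signal the Zeb2 probe set stood at percentile 25.5 of all probe sets, and every culture read it below the array medians. Such dim values cannot decide how far Zeb2 fell in culture. FVB culture differed from newborn skin by -2.27 ± 0.42 (SE, adjusted p = 7.74e-04) and mixed-strain culture from 30-day skin by -1.28 ± 0.39 (adjusted p = 0.0177). Leaving out either mixed-strain culture ended the second call (adjusted p = 0.116 without replicate 1 and 0.0874 without replicate 2), as did a fit of those 2 groups alone (adjusted p = 0.0551). Without replicate 1 of 30-day skin it was -0.94 ± 0.16 (adjusted p = 3.17e-04). Between skin ages Zeb2 differed by -0.62 ± 0.39 (adjusted p = 0.321), and without that array by -0.96 ± 0.16, which passed (adjusted p = 6.61e-04). Averaging of the arrays most alike ended both calls of Zeb2 against skin (adjusted p = 0.0645 and 0.168).

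Snai2 was higher in culture than in skin, about 2-fold at either age, and differed detectably neither between strains nor between ages. It read 7.28 in both mixed-strain cultures and 7.43, 7.61 and 7.18 in the FVB cultures. Skin gave 6.25, 6.36, 6.34, 6.15 and 6.23 at 30 days and 6.42 and 6.10 in newborns. All 5 cultures were above all 7 skin arrays, and the 2 ages overlapped, as did the 2 strains. FVB culture exceeded newborn skin 2.21-fold (1.14 ± 0.14, SE, adjusted p = 1.94e-05) and mixed-strain culture exceeded 30-day skin 2.02-fold (1.01 ± 0.13, adjusted p = 2.34e-05). The 95% interval ran from -0.27 to 0.27 for 30-day minus newborn skin and from -0.42 to 0.17 for mixed-strain minus FVB culture. Both differences from skin kept their sign and passed when arrays were centred on epithelial genes, at 0.57 and 0.70, a scaling that moves the median of all probe sets by -0.57 and -0.32 in these comparisons and by -0.22 between ages.

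Of 16 other regulators of EMT measured, 6 were higher and 7 lower in FVB culture than in newborn skin, 5 higher and 1 lower in mixed-strain culture than in 30-day skin, and 4 higher and 6 lower in 30-day than in newborn skin. Snai1, the paralog of Snai2, averaged 5.17 ± 0.25 in FVB culture and 6.13 ± 0.26 in newborn skin (SD, n = 3 and 2), a difference of -0.96 ± 0.17 (SE, adjusted p = 4.61e-04). Mixed-strain culture and 30-day skin gave 5.48 ± 0.23 and 5.39 ± 0.12 for it (SD, n = 2 and 5), which did not pass. Sox9, a factor of hair follicle progenitors, was higher by 1.95 in FVB culture than in newborn skin and by 0.82 in 30-day than in newborn skin. The signal transducer gene Smad2 was higher by 0.93 in both comparisons of culture with skin, and Tgfb3, a TGF-beta ligand, differed by -1.09 in FVB culture and by -1.04 in 30-day skin relative to newborn skin. Epithelial centring lowers the values of all probe sets in these comparisons, and after it most calls were lower. There were 2 higher and 10 lower in FVB culture against newborn skin. Mixed-strain culture against 30-day skin had 3 and 6, and 30-day against newborn skin 1 and 7.

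Epithelial genes that Snail and Zeb factors are known to repress were higher for 12 of 27 and lower for 1 in FVB culture than in newborn skin. Their median was 0.35. Over all probe sets 19.6% were higher and 14.8% lower in that comparison. Cldn4, a tight junction claudin, differed by 2.47 ± 0.23 (SE, adjusted p = 2.01e-06), Cldn7 by 1.92 and the polarity gene Patj by 1.61. Cdh1, which encodes E-cadherin, averaged 10.16 ± 0.24 in FVB culture and 8.92 ± 0.10 in newborn skin (SD, n = 3 and 2), a difference of 1.24. Cldn1 missed the threshold (0.35, adjusted p = 0.0539). In mixed-strain culture against 30-day skin 9 were higher and 6 lower, with Cldn7 at 2.33, Cldn4 at 2.12 and Cldn3 at 1.82, whereas Ovol1, a zinc finger factor of epidermal differentiation, differed by -1.64. At 30 days 8 were higher than in newborn skin and 0 lower (limma; 10 and 1 at an unadjusted p of 0.05), led by Cldn4 (1.13). With arrays centred on these same genes, 7 were higher and 11 lower in FVB culture against newborn skin. Mixed-strain culture against 30-day skin then had 7 and 8, and 30-day against newborn skin 1 and 1. That scaling removes the mean difference of these genes, so it cannot test a shift they share. Cdh1 was named after its values were seen.

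Of the 14 probe sets, 2 of those of Vim gave the largest differences in FVB culture against newborn skin, and Vim values separated all 4 groups at each of its 3 probe sets. At 1450641_at, the probe set with the highest mean, it read 9.54 and 9.37 in the mixed-strain cultures and 8.08, 7.95 and 8.23 in the FVB cultures. Skin gave 10.49, 10.59, 10.71, 10.31 and 10.53 at 30 days and 12.13 and 12.04 in newborns. The order was newborn skin, 30-day skin, mixed-strain culture and FVB culture, with no overlap. How many of all probe sets separate the groups in this way was not counted, so the separation only describes these values. FVB culture was below newborn skin by -4.00 ± 0.13 (SE, adjusted p = 5.69e-11), and the folds at 1438118_x_at, 1450641_at and 1456292_a_at were 11.3, 16.0 and 18.9. Mixed-strain culture was 2.4-fold, 2.1-fold and 2.52-fold below 30-day skin at the same probe sets, and at 1450641_at the log2 difference was -1.07 ± 0.12 (adjusted p = 8.38e-06). In 30-day against newborn skin the differences were -1.03, -1.56 and -1.34, and all passed, although averaging of the arrays most alike ended the calls at 1438118_x_at and 1456292_a_at (adjusted p = 0.200 and 0.124).

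Genes that are known to accompany mesenchymal change, such as matrix and adhesion genes, fell in 17 of 27 cases and rose in 4 in FVB culture relative to newborn skin, with a median of -1.50. Over all probe sets 14.8% were lower and 19.6% higher. Fstl1, a secreted follistatin-like glycoprotein, averaged 5.33 ± 0.20 in FVB culture and 11.72 ± 0.02 in newborn skin (SD, n = 3 and 2) and differed by -6.39 ± 0.19 (SE, adjusted p = 2.65e-11). Col1a2, a collagen I chain, differed by -5.81, periostin (Postn) by -5.67 and the crosslinking enzyme gene Loxl1 by -4.71. Mixed-strain culture against 30-day skin gave 14 lower and 8 higher (median -0.38), against 16.2% lower and 21.4% higher over all probe sets. The list was thus split there. Its largest differences were negative, with Col1a2 at -5.06, Postn at -3.73, the gelatinase gene Mmp2 at -3.24 and the matrix protein gene Sparc at -3.20. Between ages 14 were lower in 30-day skin and 2 higher (median -0.39), led by the adhesion gene Cdh11 (-2.52), Loxl1 (-1.85), Fstl1 (-1.76) and the crosslinking enzyme gene Lox (-1.73).

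Of 15 other intermediate filament genes and partners of vimentin, 5 were higher and 4 lower in FVB culture than in newborn skin, and 6 were higher and 4 lower in mixed-strain culture than in 30-day skin. Desmin (Des), a muscle filament gene of the same class as Vim, averaged 5.95 ± 0.15 in FVB culture and 9.11 ± 0.08 in newborn skin (SD, n = 3 and 2), a difference of -3.17 ± 0.19 (SE, adjusted p = 2.94e-08). The keratin genes Krt18, Krt14 and Krt5 were higher in FVB culture by 1.57, 1.02 and 0.95, and in mixed-strain culture by 1.60, 1.26 and 1.21. Relative to newborn skin, 6 were lower in 30-day skin and 0 higher (limma; 7 and 2 at an unadjusted p of 0.05), led by the lamin gene Lmna (-1.26) and the linker gene Plec (-0.64). Epithelial centring lowers the values of all probe sets in both comparisons of culture with skin. Under it the majority turned to 3 higher and 10 lower in FVB culture and to 5 higher and 6 lower in mixed-strain culture.

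Between cultures, the mixed-strain ones exceeded the FVB ones in 6 of 14 probe sets and fell below in 0, against 3.91% and 5.3% of all probe sets (9.22% in either direction), with medians of 0.42 and 0.00. The 6 were the 3 probe sets of Vim and 3 of the 4 of Prrx1, and at an unadjusted p of 0.05 limma had 8 higher and 0 lower. At 1450641_at the Vim values listed above, 9.54 and 9.37 in the mixed-strain cultures, against 7.95 to 8.23 in the FVB cultures, did not overlap, and the difference was 1.37 ± 0.13 (SE, 2.58-fold, adjusted p = 3.77e-05). At 1438118_x_at Vim read 8.74 and 8.70 in the mixed-strain cultures, against 7.23 to 7.70 in the FVB cultures, a difference of 1.21. At 1456292_a_at it read 8.23 and 8.39 in the mixed-strain cultures, against 6.37 to 6.96 in the FVB cultures, a difference of 1.56. Prrx1 at 1425528_at differed by 0.74 ± 0.12 (adjusted p = 0.00179), at 1425527_at by 0.70 (adjusted p = 0.018) and at 1432129_a_at by 0.45 (adjusted p = 0.0373). Twist1, Twist2, Prrx2, Snai2, Zeb1 and Zeb2 did not pass, at 0.02, 0.25, 0.38, -0.13, 0.41 and 0.37, with Zeb1 read at 1418926_at.

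These strain calls rest on few arrays. Leaving out replicate 1 of the mixed-strain cultures left 3 of the 6, and 425 of 22626 probe sets in all against 2085, and averaging the arrays most alike left 0 (limma; 5 at an unadjusted p of 0.05), where Vim at 1450641_at had a difference of 1.33 (adjusted p = 0.066). Without replicate 1 of the mixed-strain cultures Vim at 1438118_x_at was at 1.19 and no longer passed (adjusted p = 0.0541). The calls of Prrx1 at 1425527_at were also lost without replicate 2 of the mixed-strain cultures or replicate 3 of the FVB cultures (adjusted p = 0.208 and 0.0515). Those of 1432129_a_at were lost in 7 of the 12 fits without 1 array.

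Markers of other cell types moved with strain in culture. Of 9 melanocyte markers 6 were higher in mixed-strain than in FVB culture, namely Dct (2.15), Tyrp1 (2.29), Tyr (1.92), Pmel (1.97), Mitf (0.86) and Slc45a2 (0.82), all genes of pigment synthesis or its control. The list's mean level was 7.99 to 8.01 in mixed-strain cultures, 6.65 to 6.76 in FVB cultures, 8.02 to 8.48 in 30-day skin and 7.72 to 7.74 in newborn skin. Sox10, Kit and Ednrb did not pass (0.30, 0.68 and 0.60). Of the 9 fibroblast markers 3 were higher, Col1a2 by 1.36, Col3a1 by 0.92 and Pdgfra by 0.52, and their mean levels in culture, given above, stayed far below those of skin. Schwann cell markers were higher for 2 of 6, with mean levels of 7.47 to 7.59 in mixed-strain and 6.86 to 6.98 in FVB culture. In skin that list averaged 6.64 to 6.81 at 30 days and 6.84 to 6.91 in newborns. Skin thus lay below the mixed-strain cultures, so the list cannot be read as a measure of Schwann cells here. Smooth muscle and pericyte markers were higher for 3 of 10, with 6.61 to 6.69 in mixed-strain and 6.29 to 6.33 in FVB culture. Macrophage markers were higher for 1 of 10 and endothelial markers for 0 of 10 (limma, with 2 at an unadjusted p of 0.05). Suprabasal keratinocyte markers were lower in mixed-strain than in FVB culture for 3 of 8 and higher for 0 (limma; 4 and 0 at an unadjusted p of 0.05), with mean levels of 6.95 to 6.99 in mixed-strain and 7.62 to 7.86 in FVB culture. Basal keratinocyte markers were lower for 2 of 10 and higher for 0 (6 and 0 unadjusted). The part of these cells in the strain difference of Vim and Prrx1 was not tested.

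Mesenchymal effector genes were higher in mixed-strain than in FVB culture for 12 of 27 and lower for 1, with a median of 0.53. Fstl1 averaged 7.16 ± 0.14 in mixed-strain and 5.33 ± 0.20 in FVB culture (SD, n = 2 and 3), a difference of 1.83 ± 0.19 (SE, adjusted p = 7.5e-05), and Lox and Cdh11 were higher by 1.67 each. Tgfbi, a matrix protein gene induced by TGF-beta, differed by -1.87. The other lists held few such calls: 0 of 24 mesenchymal transcription factors and 0 of 15 intermediate filament genes (limma; 3 each at an unadjusted p of 0.05), 2 lower of 11 Twist partners and Id genes (Id1 at -1.03 and Tcf3 at -0.60), 1 lower of 16 EMT regulators (Sox9 at -0.74, not called after quantile normalisation or epithelial centring), and 1 higher and 1 lower of 27 epithelial genes (Cldn3 at 1.13 and Cdh3 at -0.65).

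**Figure D4:**
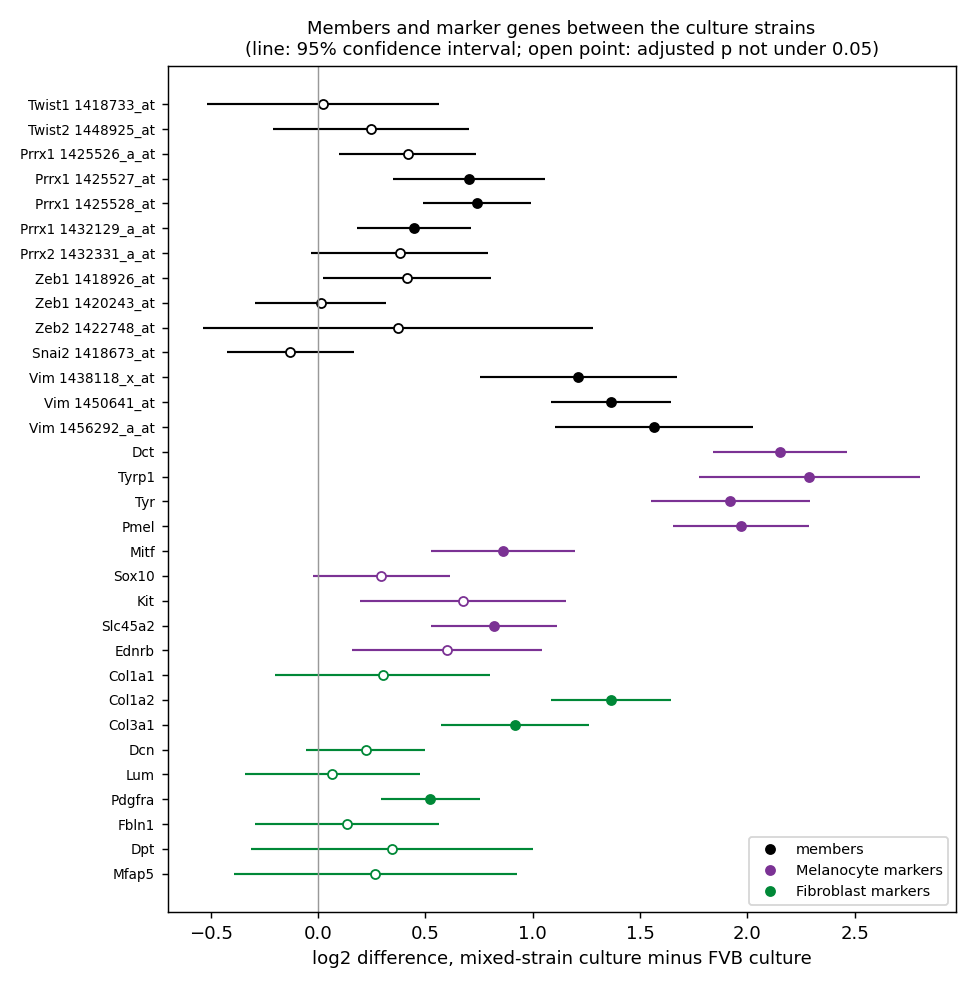
Log2 differences of mixed-strain minus FVB culture for the 14 probe sets, 9 melanocyte markers and 9 fibroblast markers, with 95% confidence intervals; filled points passed the adjusted p of 0.05. Vim and 3 probe sets of Prrx1 lie right of zero, together with 6 melanocyte and 3 fibroblast markers.

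The gap between culture and skin was larger in the FVB newborn comparison than in the mixed-strain one for 9 of 14 probe sets, by a contrast of the 2 differences in the same fit that was added after the data were seen. Over all probe sets 8.48% passed this contrast, 4.63% with a positive and 3.85% with a negative value. Positive here means a difference from 30-day skin in mixed-strain culture that lies above that from newborn skin in FVB culture. The value was 2.93 ± 0.18 for Vim at 1450641_at (SE, adjusted p = 3.56e-07), 2.67 ± 0.29 for Twist2, 2.44 ± 0.16 for Prrx1 at 1425528_at, 1.92 ± 0.26 for Prrx2 and 1.73 ± 0.34 for Twist1. Snai2 gave -0.13, with a 95% interval from -0.53 to 0.27, and Zeb1 and Zeb2 gave 0.81 and 0.997, which did not pass (adjusted p = 0.059 and 0.36). The value equals the difference between the cultures, mixed-strain minus FVB, less that between the skin ages, 30-day minus newborn. They were 0.02 and -1.71 for Twist1, 0.25 and -2.42 for Twist2, and 0.38 and -1.54 for Prrx2. For Prrx1 at 1425528_at they were 0.74 and -1.70, and for Vim at 1450641_at 1.37 and -1.56. Twist1 and Prrx2 read below the array medians in the cultures of both strains, where such dim values cannot decide whether the cultures differ. Within skin, strain and age change together, and their parts cannot be told apart.

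Profiles over the 12 arrays were compared as the root mean square difference of log2 values after centring each probe set on its mean, a measure with no test that all 12 arrays and both kinds of sample share. Among the 8 genes, at their probe sets of highest mean, Prrx1 and Vim were closest (0.27), followed by Twist1 and Twist2 (0.32). Snai2 was farthest from the other 7, at 1.21 to 1.84. Outside the set, Klhl13 (0.13), Igdcc4 (0.16) and Meg3 (0.17) were closest to Twist1, and Ifitm1 (0.23), Adgra2 (0.23) and Vcan (0.26) to Twist2. Thbs2, Lmcd1 and Grb10 (0.18, 0.22 and 0.23) were closest to Prrx1, and Limch1, Vcan and Armcx2 (0.18, 0.20 and 0.20) to Prrx2. For Snai2 they were Clcf1, Cstf1 and Pno1, each at 0.12, for Zeb1 Zdhhc14, Plod1 and Anp32a (0.16, 0.21 and 0.21), and for Zeb2 Nrep, Tmem45b and Rnf225 (0.24, 0.24 and 0.29). Vim was most like Fbln5 (0.26), then Prrx1, then Dpysl3 (0.30).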

How the data were processed

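RNA of 12 samples, 5 keratinocyte cultures and 7 skin samples, was measured on Affymetrix mouse arrays, 1 array each. The values the authors deposited are log2 expression per probe set, made by RMA (background correction, quantile normalisation, probe summary) per the submitters' processing notes. Version, settings and genome build: not given in the sources used here. RMA assumes similar value distributions across samples, and the number of arrays limits precision. Groups came from titles and strain labels. Symbols came from the platform annotation, in which 20380 probe sets have a single symbol, 691 have several and 1555 have none, controls aside.

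The test was limma's (version 3.58.1, R 4.3.3; lmFit, eBayes, two-sided) in 1 fit of 4 group means over all arrays, with Benjamini-Hochberg adjustment over 22626 probe sets (64 controls left out) and a threshold of 0.05. Errors given with group means are SDs over the arrays of the group, and those given with differences are SEs. The genes and lists were chosen with earlier results of these data known. Of each of the 6 pathway lists and each comparison, up to 4 called genes with the largest difference and 1 that missed were eligible to be named, each at its probe set of highest mean, and for each of the 8 genes the 3 with the most similar profile. Single cell type markers and Cdh1 were named outside this rule, after their values were seen. The fit was tested on simulated data. Alternatives covered scaling, filters, probe set rule, threshold, variance model, samples, a replicate block and each array left out. Averaging arrays that correlate above 0.99 and the contrast of the culture comparisons were added after seeing the data. Promoters were searched with Python 3.11.15 with numpy 2.4.6 and pandas 2.3.3, and plots were drawn with matplotlib 3.10.9.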

Additional observations from a re-analysis of the deposited data

Results flagged for a closer look

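Replicate 1 of 30-day skin lay far from the other 4 arrays of its group for 2 of the 14 probe sets. Twist1 read 6.26 there, against 5.16 to 5.33, and Zeb2 read 6.96, against 4.96 to 5.51. Such a gap appears by chance in about 1 of 20 groups. The same array had the widest actin gap and the highest 18S rRNA value of its group, and the part of that in its Twist1 and Zeb2 values was not tested.

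The difference between culture and skin was itself different in the mixed-strain comparison with 30-day skin and the FVB comparison with newborn skin for 9 probe sets, by the contrast of both in 1 limma fit. These were Twist1 (1.73), Twist2 (2.67), Prrx2 (1.92), Prrx1 at 1425526_a_at, 1425528_at and 1432129_a_at (0.95, 2.44 and 0.66), and Vim at 1438118_x_at, 1450641_at and 1456292_a_at (2.24, 2.93 and 2.91).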

How the results depend on the processing

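Of 774 values recomputed under other settings than leaving out an array, 682 kept their direction and side of the threshold or, for counts, stayed within 1.5 times. Counts of member probe sets moved by construction where fewer probe sets or 1 value per gene entered. Without the dimmest 40% of probe sets, 7 of the 14 remained in the fit. Of these 6 were called lower in FVB culture against newborn skin and 5 in 30-day against newborn skin. Left out as dim were the probe sets of Twist1, Prrx2 and Zeb2, 1420243_at of Zeb1, and 1425526_a_at, 1425527_at and 1432129_a_at of Prrx1. With the brightest probe set per gene the lower calls were 7 in FVB culture and 5 between ages, and 2 were higher in mixed-strain culture against FVB culture. With the mean of a gene's probe sets they were 7, 5 in mixed-strain culture against 30-day skin, 5 and 2. Averaging close arrays gave 5, 4 and 0 in the last 3 comparisons. The replicate block gave 3 higher between strains, with Vim at 1438118_x_at at 0.63 (adjusted p = 0.101), and 4965, 2179 and 1304 calls over all features in FVB culture against newborn skin, between ages and between strains. Deviations from group means of same-numbered arrays correlated at -0.24 to 0.087 (median 0.065), and those of other arrays at -0.18 to 0.21 (median -0.016). In a group of 2 arrays the deviations mirror each other, so this check cannot decide whether the numbers pair the samples.

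Calls over all features, in the order FVB culture against newborn skin, mixed-strain culture against 30-day skin, 30-day against newborn skin and mixed-strain against FVB culture, were 7792, 8490, 3902 and 2085. They moved to 4889, 5133 and 1219 (first, second and last) with the brightest probe set per gene, to 5077, 5228, 2587 and 1307 with the mean, and to 3354, 4124, 359 and 35 with close arrays averaged. Epithelial centring gave 16172 in the first, of which 14990 were lower. A threshold of 0.01 gave 2010 and 763 in the last 2, array weights 4962 in the last and a fit of the 2 groups alone 3300 in the last. Leaving out 1 array gave 1459 to 5275 calls between ages (lowest without replicate 2 and next, with 1978, without replicate 1 of newborn skin) and 425 to 3295 between strains (596 without replicate 2 of the mixed-strain cultures, 1137 without replicate 4 of the FVB cultures, and the highest without replicate 1 of 30-day skin), and 3 to 6 member probe sets called higher between strains.

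Differences near zero changed sign. Snai2 between ages (0.0012) was -0.011 after quantile normalisation, -0.020 after median centring, -0.22 after epithelial centring and -0.0021 on averaged arrays, and ran from -0.16 to 0.16 without 1 array. Twist1 between strains (0.023) was -0.012 after median centring, -0.016 with array weights, -0.48 with the replicate block, and -0.082 to 0.085 without 1 array. Zeb1 at 1420243_at between strains (0.013) was -0.022 after median centring, -0.046 on averaged arrays and -0.090 to 0.13 without 1 array, and Zeb2 (0.37) was -0.23 with the replicate block. In mixed-strain culture against 30-day skin, Prrx1 at 1425526_a_at, 1425527_at and 1432129_a_at was -0.21, -0.25 and -0.31 after epithelial centring and -0.15, -0.36 and -0.26 with 1 mean for all 5 cultures. The last of these was -6.4e-04 with array weights and -0.026 to 0.044 without 1 array, and 1425527_at ran from -0.091 to 0.22. Between ages 1425527_at was 0.0053 with array weights and -0.26 to 0.17 without 1 array. The cause was not tested.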
